A study of Homo sapiens with 2 samples.

Results

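Genes that the androgen receptor holds down were followed in C4-2B cells, a bone-metastatic line of castration-resistant prostate cancer derived from LNCaP that grows without androgen. The 10 genes were SYT4, DDC, CXCR7, CAMK2N1, OPRK1, BCHE, PRUNE2, LRRN1, SESN3 and PEG3, taken by symbol from the 47262 symbols that the deposited tables name outside the short RNAs. One group received DMSO as vehicle and the other 2.5 µM MA4-022-1, a compound the labels call a BET-kinase inhibitor. Each group held 1 library of total RNA depleted of ribosomal RNA, so nothing here could be checked against the spread of replicates, and p-values are not given. The length of exposure and the androgen content of the medium do not appear in the sources used here, and androgen was not varied, so repression itself was not measured. Because these are bulk samples, fewer cells that express a gene and less RNA per cell cannot be told apart.

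The androgen receptor is a nuclear receptor that, once bound by androgen, sits on enhancers of prostate genes such as the kallikreins and raises their transcription. At other genes the bound receptor lowers transcription, partly by recruiting demethylases, deacetylases and Polycomb proteins, and these genes rise when androgen is withdrawn or the receptor is blocked. Many genes with this behaviour have neuronal, secretory or signalling roles. BET proteins read acetylated histones and assist RNA polymerase II at enhancers and promoters, including those that the receptor uses.

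Of the 10 genes, 8 were expressed, meaning 1 RPKM (read density scaled to transcript length and library total) or more in at least 1 library, and 5 of these were at least 2-fold lower with MA4-022-1. The 5 were SYT4, DDC, CXCR7, CAMK2N1 and PRUNE2. LRRN1, SESN3 and PEG3 lay within 2-fold, none of the 8 was at least 2-fold higher, and OPRK1 and BCHE were under 1 RPKM in both libraries. Ratios are the log2 of RPKM + 1 under MA4-022-1 divided by RPKM + 1 under vehicle, a scale that understates the change of low genes. Of the expressed androgen-repressed genes 62.5% were thus lower, whereas 9.57% of all 15450 expressed genes were lower and 7.75% higher by the same threshold. The shares were 9.49% and 4.12% of 9840 expressed protein-coding genes, and 10.3% and 7.05% of 10584 genes with 5 RPKM or more in a library. The median log2 ratio was -1.56 over the 8 genes and -0.02 over all expressed genes. The genes were chosen with earlier results of these libraries known, so the count describes them and supports nothing further. With the housekeeping controls set to 0, which moved the median of all genes by 0.11, the same count of 5 was lower, while the share of higher genes among all those beyond 2-fold went from 44.7% to 54.8%.

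**Figure D1:**
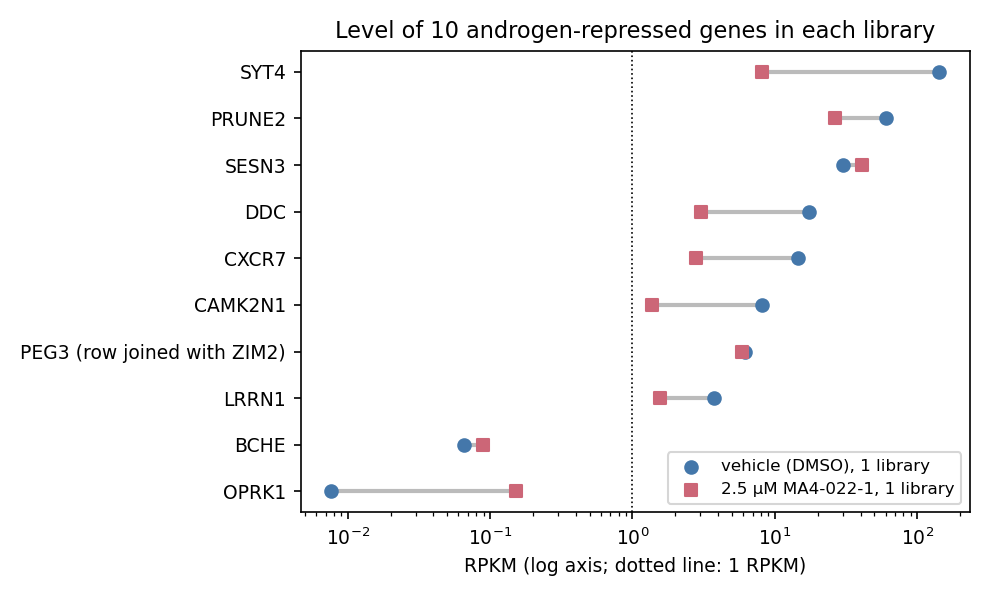
Level of each gene in RPKM (log axis) in the vehicle library (circles) and the MA4-022-1 library (squares), 1 library each, ordered by the vehicle level. SYT4 had the widest gap of the 8 expressed genes, from 143 to 8.11 RPKM, and OPRK1 and BCHE lie left of the 1 RPKM line in both libraries.

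**Figure D2:**
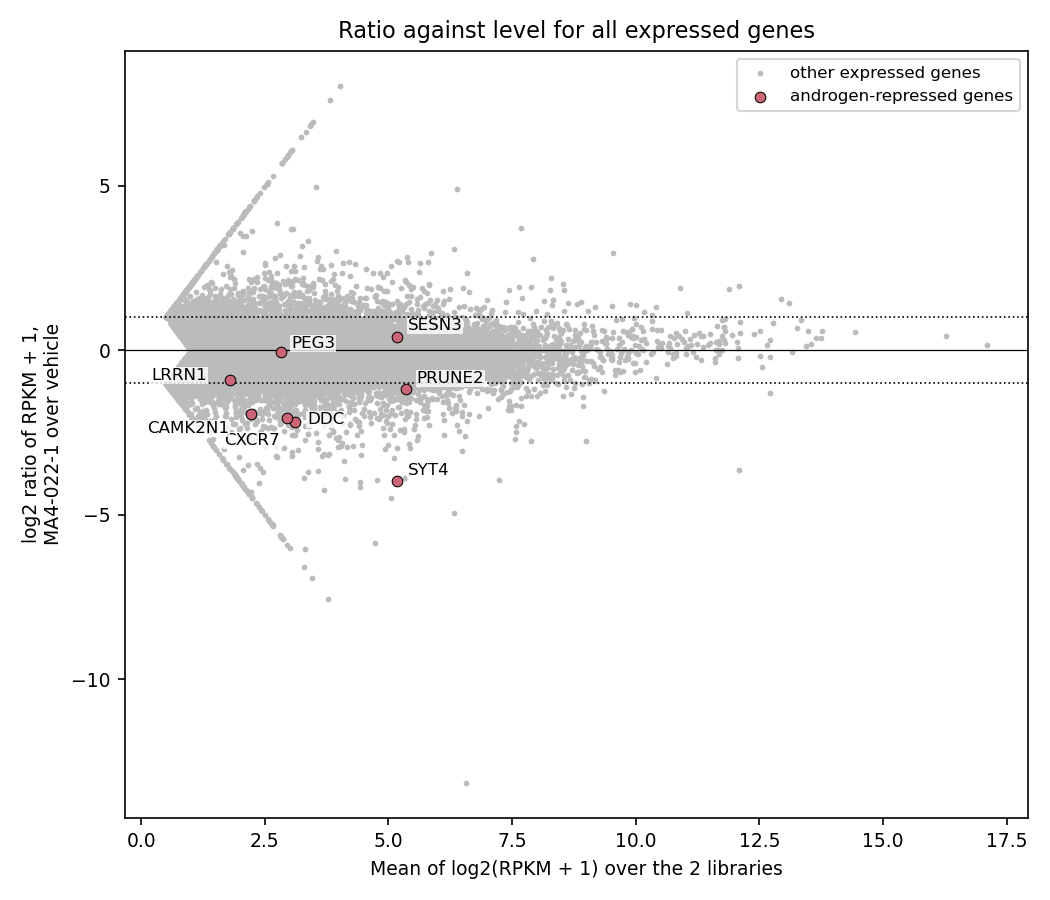
Log2 ratio of RPKM + 1 (MA4-022-1 over vehicle) against the mean log2 level, with 1 grey point for each other expressed gene and the 8 expressed androgen-repressed genes in colour. SYT4 lies well below most genes of its level at -3.98, while SESN3, of about the same mean level, lies above 0 at 0.42.

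Low values moved in steps of whole reads, which placed the library totals at about 26800000 reads under vehicle and 19700000 under MA4-022-1. A single read of a 2000 nt transcript then adds 0.0206 RPKM under vehicle and 0.0281 RPKM under MA4-022-1. Folds below that carry a counting interval are ratios of RPKM without the added 1. Their 95% intervals are exact Clopper-Pearson intervals on the reads estimated for the median annotated transcript length. They cover counting error only, and not PCR duplicates, the spread between cultures or the choice of scaling. They also take the median length as given, and a shorter transcript would mean fewer reads and wider intervals. For DDC, the shortest annotated transcript would give 123 and 16 reads in place of 691 and 89.

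The prostate identity of both libraries was checked on its markers. Of 11 prostate epithelial markers, 10 had a row of their own, and these were all expressed and all within 2-fold. The joint row of KLK2 and KLK3, the latter encoding PSA, was at 1528 RPKM under vehicle and 1675 with MA4-022-1. Several of the androgen-repressed genes are also neuronal genes, so neuroendocrine and neuronal markers were read beside them. Of 12 genes of that list with a row of their own, 4 were expressed and none was beyond 2-fold on the RPKM + 1 scale. By that threshold 9.57% of all expressed genes were lower and 7.75% higher, so lists this short say little. Log2 ratios were above 0 for 6 of the 12 and below 0 for 6. REST, on the list as the repressor of neuronal genes, was at 13.5 and 11.2 RPKM, and the other 11 summed to 11.1 RPKM under vehicle and 10.1 under MA4-022-1. The vesicle protein SYP was at 1.20 and 3.17 RPKM and the granule protein CHGB at 1.22 and 1.84, whereas the Notch ligand DLL3 was at 7.57 and 3.60. Without the added 1, SYP was more than 2-fold higher and DLL3 more than 2-fold lower. The granule protein CHGA was at 0.290 and 0.197 RPKM, and the factor INSM1 at 0.0140 RPKM and listed at 0. ENO2 and TUBB3 had values in joint rows with other genes, at 18.7 and 30.5 RPKM and at 115 and 193 RPKM. Of 12 stromal and blood cell markers with a row of their own, 2 were expressed. One of these 2 was at least 2-fold higher, or 50% on so few genes, beside 7.75% of all expressed genes. Log2 ratios were above 0 for 6 of the 12 and below 0 for 4. The higher one was COL1A1, a collagen, at 1.19 RPKM under vehicle and 5.03 with MA4-022-1, and ACTA2 was at 2.75 and 3.13. The collagen COL3A1 was at 0.0398 RPKM and listed at 0, and DCN at 0.713 and 0.319 RPKM. LUM and PECAM1 were listed at 0 in both libraries. The part of such cells or states in the results below was not tested.

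Sequence before the start of transcription was taken from a table of RefSeq promoters on GRCh38.p14, in which 6 of the 10 genes were matched, with 8 starts in all. Shown are the 250 bases before the most upstream start of SYT4 (chr18:43277491-43277740, minus strand), DDC (chr7:50565406-50565655, minus), PRUNE2 (chr9:76906115-76906364, minus), LRRN1 (chr3:3799181-3799430, plus) and SESN3 (chr11:95232476-95232725, minus). They set the 3 genes called lower beside LRRN1, which was just short of 2-fold, and SESN3, whose level was above that of the vehicle library. Capitals mark matches on either strand to any of 6 short motifs. The core of androgen receptor sites was searched as AGAACA and the forkhead core, bound by pioneer factors such as FOXA1, as TGTTTA. The E-box was searched as CACGTG and the GC box, bound by SP1, as GGGCGG. The TATA box was searched as TATAAA and the core of cyclic AMP response elements as TGACG.
SYT4: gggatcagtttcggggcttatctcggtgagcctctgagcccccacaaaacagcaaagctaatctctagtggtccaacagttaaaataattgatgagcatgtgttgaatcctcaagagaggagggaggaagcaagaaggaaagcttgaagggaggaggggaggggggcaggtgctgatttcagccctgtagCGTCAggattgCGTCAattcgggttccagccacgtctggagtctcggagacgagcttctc
DDC: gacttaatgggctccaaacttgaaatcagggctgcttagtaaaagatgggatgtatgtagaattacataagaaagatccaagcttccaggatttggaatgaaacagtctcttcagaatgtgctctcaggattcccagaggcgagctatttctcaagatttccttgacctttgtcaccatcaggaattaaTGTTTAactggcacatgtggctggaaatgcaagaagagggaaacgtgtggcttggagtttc
PRUNE2: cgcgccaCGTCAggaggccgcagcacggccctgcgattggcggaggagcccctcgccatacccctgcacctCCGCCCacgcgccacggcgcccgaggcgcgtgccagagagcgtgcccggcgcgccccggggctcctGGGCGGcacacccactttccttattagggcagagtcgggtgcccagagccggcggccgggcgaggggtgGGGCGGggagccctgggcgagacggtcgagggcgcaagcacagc
LRRN1: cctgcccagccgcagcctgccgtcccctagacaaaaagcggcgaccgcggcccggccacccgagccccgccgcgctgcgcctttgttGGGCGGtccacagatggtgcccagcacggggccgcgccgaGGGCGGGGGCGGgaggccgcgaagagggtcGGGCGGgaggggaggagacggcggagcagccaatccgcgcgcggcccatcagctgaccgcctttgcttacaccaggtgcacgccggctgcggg
SESN3: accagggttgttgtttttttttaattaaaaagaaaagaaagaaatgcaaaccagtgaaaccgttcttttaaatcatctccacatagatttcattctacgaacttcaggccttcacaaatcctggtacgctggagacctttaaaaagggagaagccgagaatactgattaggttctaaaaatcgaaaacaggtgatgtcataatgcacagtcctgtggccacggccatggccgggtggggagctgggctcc
None of the 8 windows held the androgen receptor core, which was found in 12.4% of 35116 RefSeq promoters of the same length. SYT4 held 2 copies of the cyclic AMP core, read as CGTCA, and PRUNE2 held 1, against 21.2% of all windows with a match. DDC held 1 forkhead match, which 11.0% of windows held. The E-box and the TATA box, in 6.34% and 10.7% of all windows, had no match in the 5 sequences shown. GC boxes occurred in PRUNE2 and LRRN1, with 3 and 4 matches, none overlapping another, and in 42.6% of all windows. These 2 genes also had GC-rich windows, at 76.4% and 75.6% with 32 and 33 CpG, while SYT4, DDC and SESN3 were at 52.8%, 42.4% and 42.8% with 8, 2 and 7 CpG. The median over all windows was 58% with 11 CpG. Among the lower genes shown, only PRUNE2 had a GC-rich window, at its most upstream start. Its other start was at 48.0% with 4 CpG, and the other start of DDC at 58.0% with 3 CpG. Which start these cells use was not tested, and CXCR7 and CAMK2N1, also lower, had no window here. A match describes letters in these windows and is not a binding site.

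SYT4 encodes a synaptotagmin, a membrane protein that regulates the fusion of secretory vesicles. Its row (chromosome 18, 40847815 to 40857615 on hg19) stood at 143 RPKM under vehicle and 8.11 with MA4-022-1. That made it the most abundant of the 10 genes in the vehicle library, above 94.2% of expressed genes, and brought it above 47.2% with MA4-022-1. The RPKM ratio was 17.6-fold lower, with a counting interval from 15.0 to 20.8, on an estimated 3724 and 155 reads. By annotated transcript length the reads ranged from 1400 and 58 to 15037 and 625. Of all 15450 expressed genes, 49 had a lower log2 ratio. Without SYT4 the median of the other expressed androgen-repressed genes was -1.18. Among the 3 genes whose pair of levels was closest to that of SYT4, by Euclidean distance in log2 of RPKM + 1 over the 2 libraries, were the histone gene HIST1H3I and RRM2, a subunit of ribonucleotide reductase, at distances of 0.22 and 0.40. HIST1H3I stood at 153 against 9.47 RPKM and RRM2 at 158 against 6.01.

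Of 18 other synaptotagmin and synaptotagmin-like genes with a row of their own, 5 were expressed, with a median log2 ratio of -0.13. None of the 5 was beyond 2-fold on the RPKM + 1 scale, beside 9.57% lower and 7.75% higher of all expressed genes. So few genes say little about the family. Log2 ratios were above 0 for 10 of the 18 and below 0 for 7. SYT7, a slow calcium sensor, stood at 5.498 RPKM under vehicle and 3.72 with MA4-022-1. SYT11, the closest relative of SYT4, stood at 0.164 and 0.357 RPKM, and SYT1 at 0.0101 RPKM and listed at 0.

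DDC encodes the aromatic amino acid decarboxylase that makes dopamine and serotonin from their precursors, and its product has been described as a coactivator of the androgen receptor. Its row (chromosome 7, 50526134 to 50633154) stood at 17.3 RPKM under vehicle and 3.04 with MA4-022-1. This was 5.67-fold lower in RPKM, with a counting interval from 4.56 to 7.19. On the RPKM + 1 scale, the enzymes on either side of DDC in monoamine metabolism did not pass 2-fold. Of 7 expressed members 0 were beyond it in either direction, with a list median of -0.19. By the same threshold 9.57% of all expressed genes were lower and 7.75% higher, so 7 genes say little. SPR had the lowest ratio of the list, at 13.1 against 6.52 RPKM. It was 1.88-fold lower on that scale and just past 2-fold lower without the added 1. MAOA, which degrades monoamines, stood at 433 against 317 RPKM. The precursor enzyme TH and the transporter SLC18A1 were listed at 0 in both libraries.

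CXCR7, now named ACKR3, encodes an atypical receptor that binds the chemokine CXCL12 and signals through arrestins. Its row (chromosome 2, 237476430 to 237491001) stood at 14.6 RPKM under vehicle and 2.78 with MA4-022-1, 5.27-fold lower with a counting interval from 4.09 to 6.89. CXCR4, the classical receptor of the same ligand, stood at 0.0287 and 0.0678 RPKM, so CXCR7 was the more abundant in both libraries on this scale per length. CXCL12 itself stood at 1.14 and 0.624 RPKM. Beside 9.57% lower and 7.75% higher of all expressed genes, 0 of 6 expressed genes of this axis were beyond 2-fold. ADRBK1, a kinase that marks such receptors for arrestin, had the lowest ratio among them at 85.5 against 46.7 RPKM, and the arrestin ARRB1 stood at 55.2 against 41.7 RPKM, both named once their values were known.

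CAMK2N1 encodes a small inhibitor of the calcium and calmodulin kinase CaMKII and has been described as a growth suppressor in prostate cells. Its row (chromosome 1, 20808884 to 20812713) stood at 8.17 RPKM under vehicle and 1.38 with MA4-022-1, 5.91-fold lower with a counting interval from 4.51 to 7.93. On the scale of RPKM + 1 the same difference was 3.85-fold. CAMK2N2, the related inhibitor, stood at 3.71 against 2.16 RPKM, within 2-fold. The kinase genes that these inhibitors act on stood at 24.8 against 32.0 RPKM for CAMK2D, at 8.58 against 12.2 for CAMK2G and at 3.39 against 2.70 for CAMK2B. Against 9.57% of all expressed genes lower and 7.75% higher, none of 9 expressed genes of this list was beyond 2-fold on the RPKM + 1 scale. CAMKK1, an upstream kinase at 12.2 against 5.62 RPKM, lay just inside it, and was 2.18-fold lower in RPKM without the added 1 and 2.14-fold lower with it when library sums were made equal.

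PRUNE2 encodes a large BCH domain protein that restrains RhoA, and the prostate noncoding RNA PCA3 lies within one of its introns on the other strand. PRUNE2 (chromosome 9, 79226292 to 79521122) stood at 60.9 RPKM under vehicle and 26.3 with MA4-022-1, 2.32-fold lower with a counting interval from 2.22 to 2.41. PCA3 had 3 rows at the same deposited locus. One stood at 0.683 against 0.540 RPKM, and the other two stood at 7.15 and 10.9 RPKM under vehicle and were listed at 0 with MA4-022-1. A value of 0 can be a failed estimate in tables of this kind, and 307 of the 10509 named rows at 5 RPKM or more under vehicle were listed at 0 under MA4-022-1, and 320 of 10717 the other way round. The PCA3 row with a value in both libraries had a log2 ratio of -0.13. The sources used here do not say whether counting used strand, and without it reads of PRUNE2 and PCA3 cannot be told apart where they overlap. ADARB1, an RNA editing enzyme of the family described as acting on the duplex of both RNAs, stood at 14.5 RPKM under vehicle and 111 with MA4-022-1, summed over 2 rows, 1 of them listed at 0 under vehicle and the other at 14.5 against 103 RPKM. ADAR, of the same family, was at 51.4 against 37.8 RPKM. BNIP2, a BCH domain relative, stood at 58.2 against 62.5 RPKM.

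LRRN1 encodes a neuronal protein with leucine-rich repeats at the cell surface. It stood at 3.76 RPKM under vehicle and 1.55 with MA4-022-1 (chromosome 3, 3742498 to 4508965, a locus shared with SETMAR and SUMF1). On the RPKM + 1 scale it was 1.86-fold lower, within the threshold, while the RPKM ratio was 2.42-fold lower with a counting interval from 1.95 to 3.02. LRRN3, a gene of the same family, went the other way at 5.94 against 30.4 RPKM, summed over 7 rows that were all higher with MA4-022-1. LRRN2 stood at 0.171 and 0.234 RPKM. LRRN3 was the 1 expressed gene among 14 neuronal genes of this kind.

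SESN3 encodes a sestrin, a stress sensor that restrains the mTORC1 kinase through the GATOR complexes. Its row (chromosome 11, 94883703 to 94967268) stood at 30.3 RPKM under vehicle and 40.8 with MA4-022-1, 1.35 times the vehicle level and between 1.23 and 1.47 times it by the counting interval. This was the highest log2 ratio of the 8 expressed androgen-repressed genes, and within 2-fold. The other sestrins had ratios below 0, with SESN1 at 16.8 against 12.7 RPKM and SESN2 at 10.7 against 6.72. Among 18 expressed sestrin, GATOR and mTOR genes 0 were beyond 2-fold, beside 9.57% lower and 7.75% higher of all expressed genes.

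PEG3, an imprinted zinc finger gene expressed from the paternal copy, was read from 1 row shared with ZIM2, the gene next to it, whose transcripts share exons with PEG3 (chromosome 19, 57202054 to 57352097). That row stood at 6.16 RPKM under vehicle and 5.93 with MA4-022-1. The RPKM ratio of 0.962 had a counting interval from 0.873 to 1.06. That interval took the median transcript length of PEG3 alone for the shared row, at an estimated 1025 and 723 reads. The shortest PEG3 transcript would give 36 and 25 reads and a wider interval. The sign of the log2 ratio turned when the housekeeping controls were set to 0 or upper quartiles were made equal. Of 11 expressed imprinted genes 1 was beyond 2-fold, namely PEG10, at 0.835 against 3.24 RPKM, under the level of the naming rule. That is 9.09% of the list, beside 7.75% of all expressed genes at least 2-fold higher.

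OPRK1 encodes the kappa opioid receptor and is a common reporter gene of androgen receptor repression. It stood at 0.00766 RPKM in the vehicle library, the value of 1 read, and at 0.152 RPKM with MA4-022-1, an estimated 13 reads (chromosome 8, 54090131 to 54164257). The RPKM ratio was 19.8-fold higher with a counting interval from 2.66 to 753, and the value with MA4-022-1 was still far under 1 RPKM. BCHE, the butyrylcholinesterase gene (chromosome 3, 165490692 to 165555260), stood at 0.0654 and 0.0892 RPKM. The ratio of these values is that of 1 read in each library, so the same small number of reads, between 1 and 4 by transcript length, lay behind both, and no difference was detectable at this depth. The opioid receptor genes OPRM1 and OPRD1 were listed at 0 in both libraries, and ACHE, the other cholinesterase, stood at 0.113 and 0.392 RPKM.

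**Figure D3:**
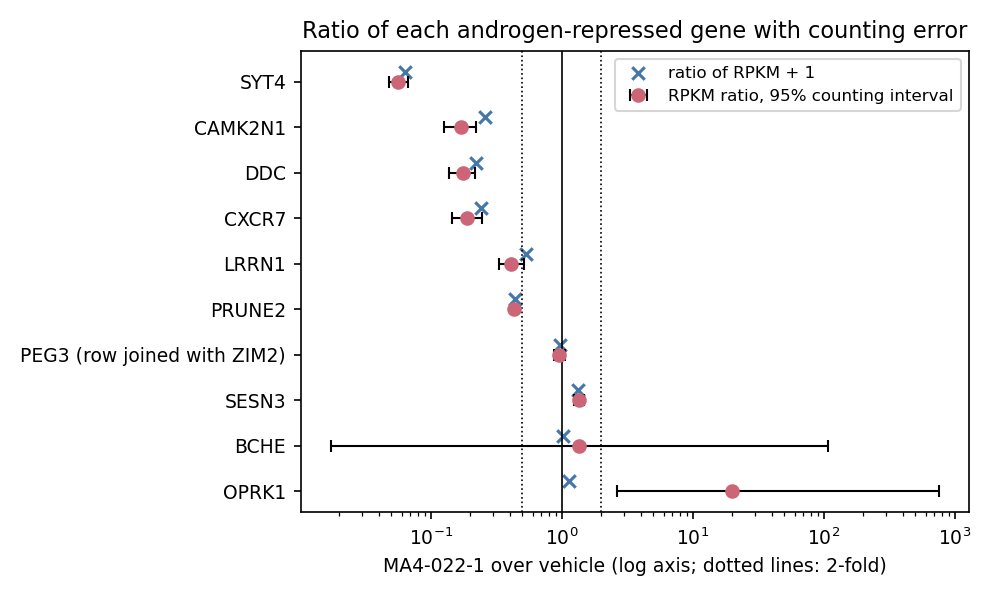
Ratio of RPKM, MA4-022-1 over vehicle (log axis), for each of the 10 genes with its 95% counting interval, and beside it the ratio of RPKM + 1 (crosses). Intervals of SYT4, CAMK2N1, DDC, CXCR7 and PRUNE2 lie wholly below the 2-fold line, that of LRRN1 reaches across it, and those of OPRK1 and BCHE span wide ranges on few reads.

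The spread among the 10 genes was compared with that of genes tied to them by pathway. Over 11 lists of family members and functional partners, 79 of 169 genes were expressed, 1 of these (PCA3) was lower and 5 were higher by 2-fold or more, or 1.27% and 6.33%, against 9.57% and 7.75% of all expressed genes. The lower call of PCA3 rests on its 2 rows listed at 0 under MA4-022-1. Among the 5 were ADARB1, LRRN3, PEG10 and GNAI1, an inhibitory G protein subunit at 8.48 against 24.6 RPKM. The median log2 ratio of the 79 genes was 0.06, smaller than the 0.11 by which a change of scaling moved all genes.

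Of 12 other genes described as repressed by the receptor 5 were expressed, 1 was at least 2-fold lower, 1 at least 2-fold higher and the median log2 ratio was 0.67. With so few genes, 1 gene is 20% of the list, beside 9.57% lower and 7.75% higher among all expressed genes. HSD17B6, which converts androgen precursors, was the lower one at 12.4 against 2.45 RPKM, and PEG10 the higher one. The secreted proteins IGFBP3 and CLU stood at 2.66 against 5.53 and 74.1 against 119 RPKM, and were named once their values were known. UGT2B15 and UGT2B17, near-identical enzymes that inactivate androgens, were each at 0.216 RPKM under vehicle and listed at 0 with MA4-022-1, and reads could be split between such copies.

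Of 26 expressed genes known to be raised by the receptor, 4 were at least 2-fold lower, 2 at least 2-fold higher and 20 within 2-fold, with a median log2 ratio of 0.17. These shares of 15.4% and 7.69% stand beside 9.57% and 7.75% of all expressed genes. The lower ones were KRT19, a keratin, at a log2 ratio of -3.09, TRPM8, an ion channel, at -2.49, PMEPA1, an inhibitor of TGF-beta signalling, at -1.49, and the centromere gene CENPN at -1.44. The higher ones were the kallikrein KLK4 at 1.48 and C1orf116 at 1.40. CENPN and C1orf116 fall outside the naming rule and were added once their values were known. Of 21 genes of the receptor and its repressor complexes, all expressed, 1 was at least 2-fold lower, or 4.76% beside 9.57% of all expressed genes, and log2 ratios were above 0 for 10 and below 0 for 11. That gene was EZH2, the methyltransferase of Polycomb complex PRC2, at 42.001 against 16.026 RPKM, and KDM1A, a histone demethylase that acts with the receptor at repressed genes, stood at 35.3 against 19.3 RPKM. The deacetylase HDAC3 was at 45.6 against 78.8 RPKM, the corepressor NCOR1 at 46.0 against 61.8 and CTBP2 at 20.5 against 29.983. The median of that list was -0.20.

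**Figure D4:**
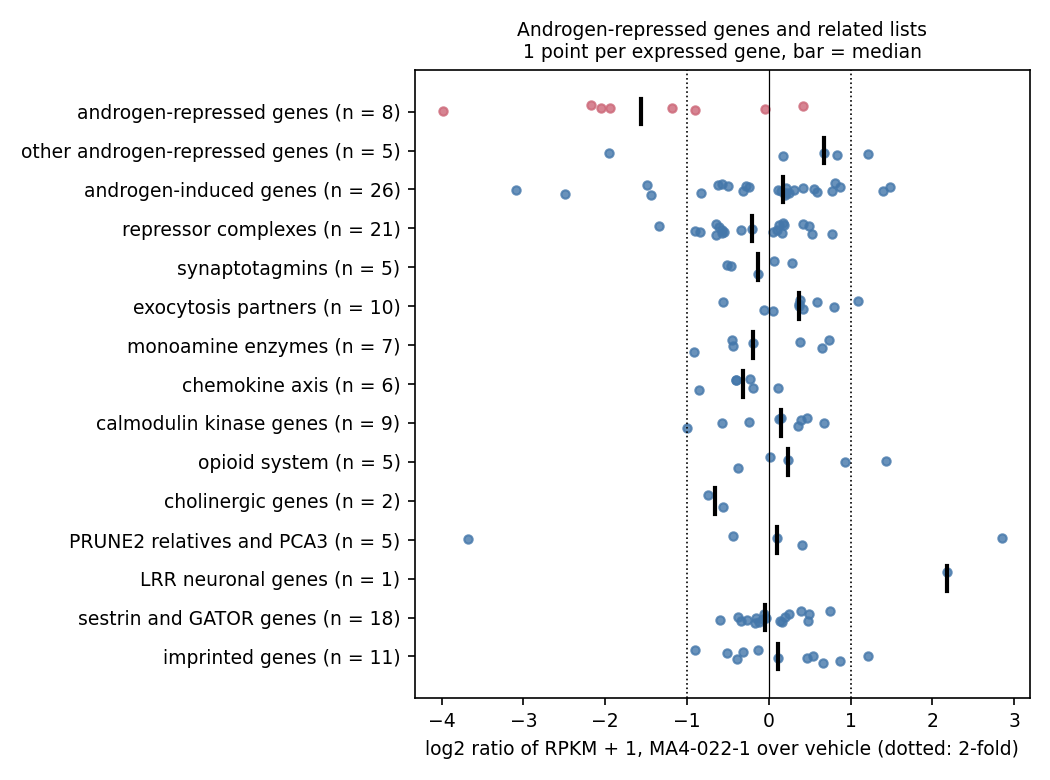
Log2 ratio of RPKM + 1 (MA4-022-1 over vehicle) for each expressed gene of the androgen-repressed set and of related lists, with the median as a bar and the number of expressed genes in brackets. The androgen-repressed set has a median of -1.56, while ADARB1 lies at 2.85 and PCA3 at -3.68, the latter from 2 rows listed at 0 under MA4-022-1.

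The choice of genes had not used position. The nearest expressed gene on each side within 500 kb on hg19 was found at 14 sides, of which 3 genes were at least 2-fold lower, 0 at least 2-fold higher, and the median log2 ratio was -0.42. The 3 lower genes are 21.4% of the 14, beside 9.57% and a median of -0.02 over all expressed genes. SYT4 had no expressed gene within that distance on either side. Beside DDC, FIGNL1 at 8.05 kb stood at 25.983 against 11.8 RPKM and GRB10 at 24.6 kb at 34.3 against 27.5 RPKM. MUL1, 13.2 kb from CAMK2N1, stood at 5.11 against 4.45 RPKM. The other two lower neighbours were ITPR1-AS1 beside LRRN1, an antisense gene at 1.29 against 0.0765 RPKM that cannot be told apart from ITPR1 if counting ignored strand, and RP11-1081M5.1 beside OPRK1, at 6.38 against 0.384 RPKM. At the deposited locus of LRRN1, SETMAR and SUMF1 stood at 21.9 against 13.7 and 19.8 against 13.5 RPKM. On the RPKM + 1 scale the 3 genes of that locus had log2 ratios between -0.90 and -0.52. The added 1 shrinks the ratio of LRRN1 more, as its level is lower. Without it LRRN1 was 2.42-fold lower, while SETMAR and SUMF1 stayed within 2-fold.

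**Figure D5:**
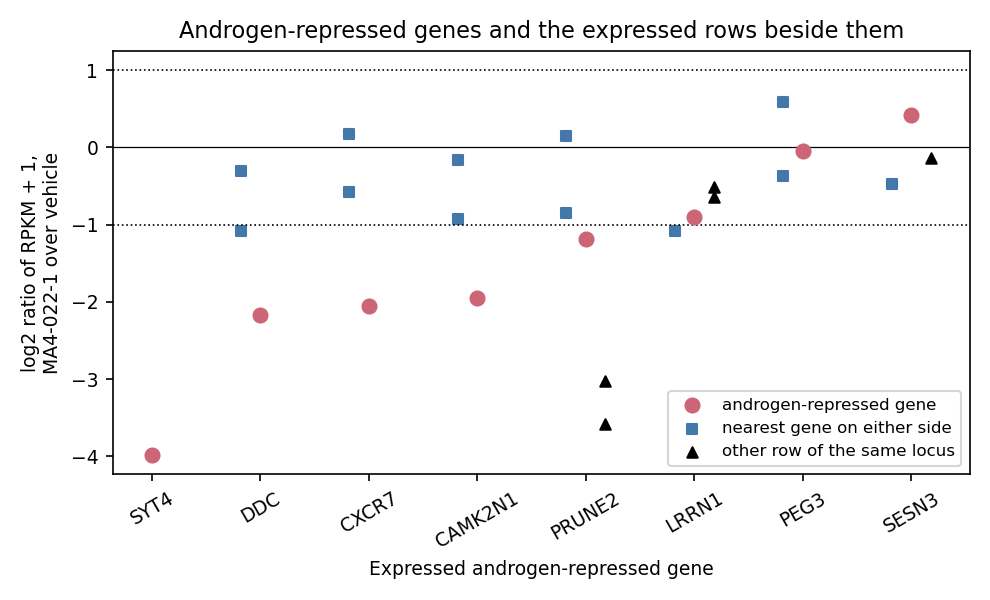
Log2 ratio of RPKM + 1 (MA4-022-1 over vehicle) of each expressed androgen-repressed gene (circles), of the nearest expressed gene on either side within 500 kb (squares) and of other rows of 1 RPKM or more at the same deposited locus (triangles). DDC, CXCR7 and CAMK2N1 lie below both neighbours, LRRN1 lies close to the rows beside it on this scale with the added 1, and SYT4 has no neighbour in range.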

How the data were processed

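Total RNA of C4-2B cells was measured in 1 library per group. Per the labels' protocols, RNA was depleted of ribosomal RNA, made into ScriptSeq v2 libraries and read as single 50 bp reads. The submitters' processing notes name Cufflinks 2.2.1, TopHat2 2.0.13 and the build hg19. The authors deposited RPKM per locus and symbol for each library, per the file headers, so no count test was run.

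Each table held 62271 rows. The 2751 without a symbol, which held 29.6% and 23.3% of summed RPKM, and short RNAs, with 12.6% and 17.8%, were left out. Rows of 1 symbol were summed and joined rows kept under their joint name. List genes found only in joined rows were not counted. Locus starts are given 1-based. The genes and lists were chosen with earlier results of these data known, and promoter motifs with the sequences in view.

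Named were the 10 genes, in each list up to 4 genes beyond 2-fold with 5 RPKM or more and a set of fixed partners, flanking genes, and the 3 symbols of 5 RPKM or more closest to the most abundant member. Other list genes in the text were named once their values were known, and some genes the rule names are not reported here. Depth was fitted to low values of processed pseudogenes, of which 87.9% and 87.7% lay within 2% of whole reads. Transcript lengths and gene types came from GENCODE release 29, matched by symbol for 10971 expressed genes. Medians of 5 of 18 lists changed sign with the scaling, namely those of PRUNE2 relatives, sestrin genes, imprinted genes, prostate markers and neuroendocrine markers. Software was Python 3.11.15, numpy 2.4.6, pandas 2.3.3, scipy 1.17.1 and matplotlib 3.10.9. The scripts' ratios, counts and depth fit were tested on simulated data. Alternatives were other pseudocounts, filters, scalings, row rules and thresholds.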

Additional observations from a re-analysis of the deposited data

How the results depend on the processing

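No paired analysis was possible because each group held 1 library, and no library could be left out. The count of 5 androgen-repressed genes at least 2-fold lower stayed between 4 and 6 under every alternative run. It was 6 with a pseudocount of 0.1 and also at a threshold of 1.5-fold, where LRRN1 passed. At a threshold of 3-fold it was 4, where PRUNE2 did not pass. The median of these genes was -1.79 with a pseudocount of 0.1, -1.06 with one of 5, -1.04 without the filter on low values, -1.94 with 5 RPKM required in a library and -1.94 with joined rows left out, which drops PEG3. The number of expressed genes at least 2-fold lower was 660 with a pseudocount of 5, 3191 at a threshold of 1.5-fold and 512 at 3-fold. Of 69 recomputed ratios of single genes, 2 changed sign, both of PEG3, with the housekeeping controls set to 0 and with equal upper quartiles. The log2 ratio of PRUNE2, -1.18 at the main setting, was -1.07 with the housekeeping controls set to 0. It was -1.08 with equal upper quartiles and -1.30 with equal sums. Depth limits OPRK1 and BCHE, which rest on few reads.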

Other observations

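Among the 16 housekeeping controls, 15 lay within 2-fold and POLR2A, the largest subunit of RNA polymerase II, was at 10.1 RPKM under vehicle and 31.8 with MA4-022-1. That 1 gene is 6.25% of the controls, beside 7.75% of all expressed genes at least 2-fold higher. The median log2 ratio of these controls was -0.12.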
